A study of Mus musculus with 20 samples.

Results

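The nuclear receptors are ligand-dependent and orphan transcription factors, and 36 of their genes were followed here in mouse liver, out of 38924 genes with a deposited FPKM value (fragments per kilobase of gene, scaled to the assigned fragments of the library). Members were taken by gene symbol and all 36 were found. Livers came from male C57BL/6J WT mice and from mice of the constitutive TSP-1 knockout line of The Jackson Laboratory, a whole-body null of thrombospondin-1, bought at 5 weeks of age. Mice ate control chow or CDAHFD for 12 weeks. The latter is a high fat chow without choline and with limited methionine, in which protein is replaced by defined amino acids. There were 4 groups of 5 mice. NDWT and HFWT stand for WT mice on the control chow and on CDAHFD, and NDKO and HFKO for the TSP-1 knockout line on the same chows. CDAHFD is a model of steatohepatitis with fibrosis, and no drug was given to any group. The series description names the right medial lobe and the methods of the study the right lateral lobe as the source of the RNA.

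Most nuclear receptors carry a DNA-binding domain with zinc fingers and a pocket for a small lipophilic ligand. In hepatocytes, PPARα drives fatty acid oxidation, LXRs respond to oxysterols, FXR to bile acids, and PXR and CAR to foreign compounds, each as a heterodimer with RXR. HNF4α keeps hepatocytes differentiated, retinoic acid receptors and RXR read out vitamin A metabolites, the glucocorticoid receptor binds as a homodimer, and the NR4A receptors are transcribed within minutes of a stimulus.

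Libraries held 15641545 to 23276322 assigned fragments, so that 3 fragments on a gene of 1 kb are worth 0.129 to 0.192 FPKM, and these floors cover counting error only. A DEG (differentially expressed gene) has a Benjamini-Hochberg FDR under 0.05 in limma over 14524 tested genes and an absolute log2FC above 0.58 on log2(FPKM + 0.1). Thbs1, the targeted gene, was read first. Its FPKM ran from 0.058 to 0.326 in NDWT, from 0.986 to 1.9 in NDKO, from 3.46 to 6.1 in HFWT and from 3.05 to 4.4 in HFKO. On the control diet every NDKO library thus exceeded every NDWT library in Thbs1 (log2FC 2.28, SE 0.24, limma FDR 1.02e-05), and on CDAHFD the labels overlapped (log2FC -0.39, SE 0.24, limma FDR 0.408). Thbs1 runs against the label of the control diet libraries and does not separate the labels on CDAHFD, so genotypes are given as labelled throughout. Hepatocyte markers were abundant in all libraries, with a summed level of 30168 to 55843 FPKM over 8 genes.

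In control diet WT liver, Hnf4a was the most abundant receptor transcript per length at 164 ± 22.8 FPKM (SD, n = 5), which was 23.2% of the summed level of all 36 members. Rxra followed at 108 ± 13.5 FPKM, Ppara at 76.6 ± 12.0, Nr1h4 (FXR) at 50.6 ± 3.44 and Nr1h3 (LXRα) at 46.9 ± 4.97. The ranges of Nr1h4 and Nr1h3 overlapped, from 46.4 to 54.2 and from 42.3 to 54.2 FPKM, so their order does not exceed their spread. Nr0b2 (SHP), Nr1i3 (CAR) and Nr1i2 (PXR) came next with means of 35.6, 35.5 and 33.5 FPKM and overlapping ranges. At the low end, Vdr (vitamin D receptor) had a mean of 0.0082 FPKM, from 0 to 3 fragments per library, and Hnf4g 0.027 FPKM, from 0 to 4 fragments. The summed level of the 36 members ran from 671 to 766 FPKM in NDWT, from 688 to 837 in NDKO, from 639 to 693 in HFWT and from 706 to 764 in HFKO.

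**Figure D1:**
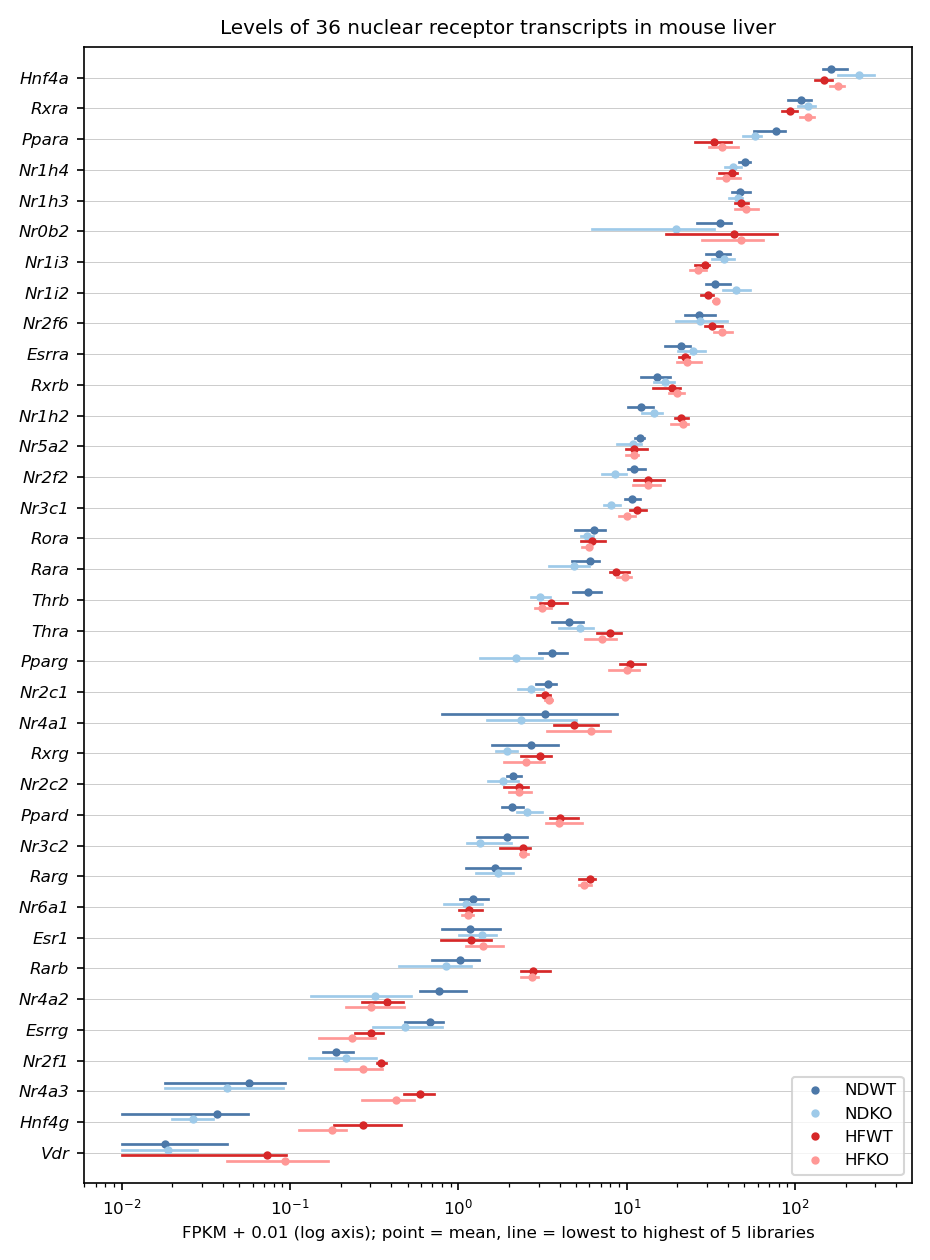
FPKM of the 36 nuclear receptor genes, ordered by their mean in NDWT, on a log axis after adding 0.01. Each point is the mean of 5 libraries and each line runs from the lowest to the highest library of that group; Hnf4a and Rxra lie at the top in all 4 groups, and Vdr lies at the bottom.

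The first question of the design was what CDAHFD did to the liver of each genotype. In WT mice 7 receptors rose (Pparg, Ppard, Nr1h2, Rarb, Rarg, Thra and Nr4a3) and 4 fell (Ppara, Thrb, Esrrg and Nr4a2), out of 33 tested. In libraries labelled TSP-1 null 10 rose (Pparg, Ppard, Rara, Rarb, Rarg, Nr3c2, Nr2f2, Nr0b2, Nr4a1 and Nr4a3) and 2 fell (Ppara and Esrrg). Among all tested genes 44.1% rose and 4.62% fell in WT, and 41.9% rose and 4% fell in libraries labelled TSP-1 null. Groups of 5 did not overlap between diets for 8 higher and 5 lower receptors in WT, where 50.5% and 5.7% of all tested genes were apart, and for 10 and 3 in libraries labelled TSP-1 null, where 52.7% and 5.03% were. An unadjusted p under 0.05 was reached by 18 receptors in WT and 21 in libraries labelled TSP-1 null, against 75% and 73.6% of all tested genes. By DEG call 21.2% and 30.3% of the receptors rose and 12.1% and 6.06% fell, and the difference from all tested genes was not tested. The median log2FC of the 14524 genes was 0.53 in WT and 0.50 in libraries labelled TSP-1 null. The median over the 33 receptors was 0.10 and 0.31, which is -0.44 and -0.19 relative to those medians.

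**Figure D2:**
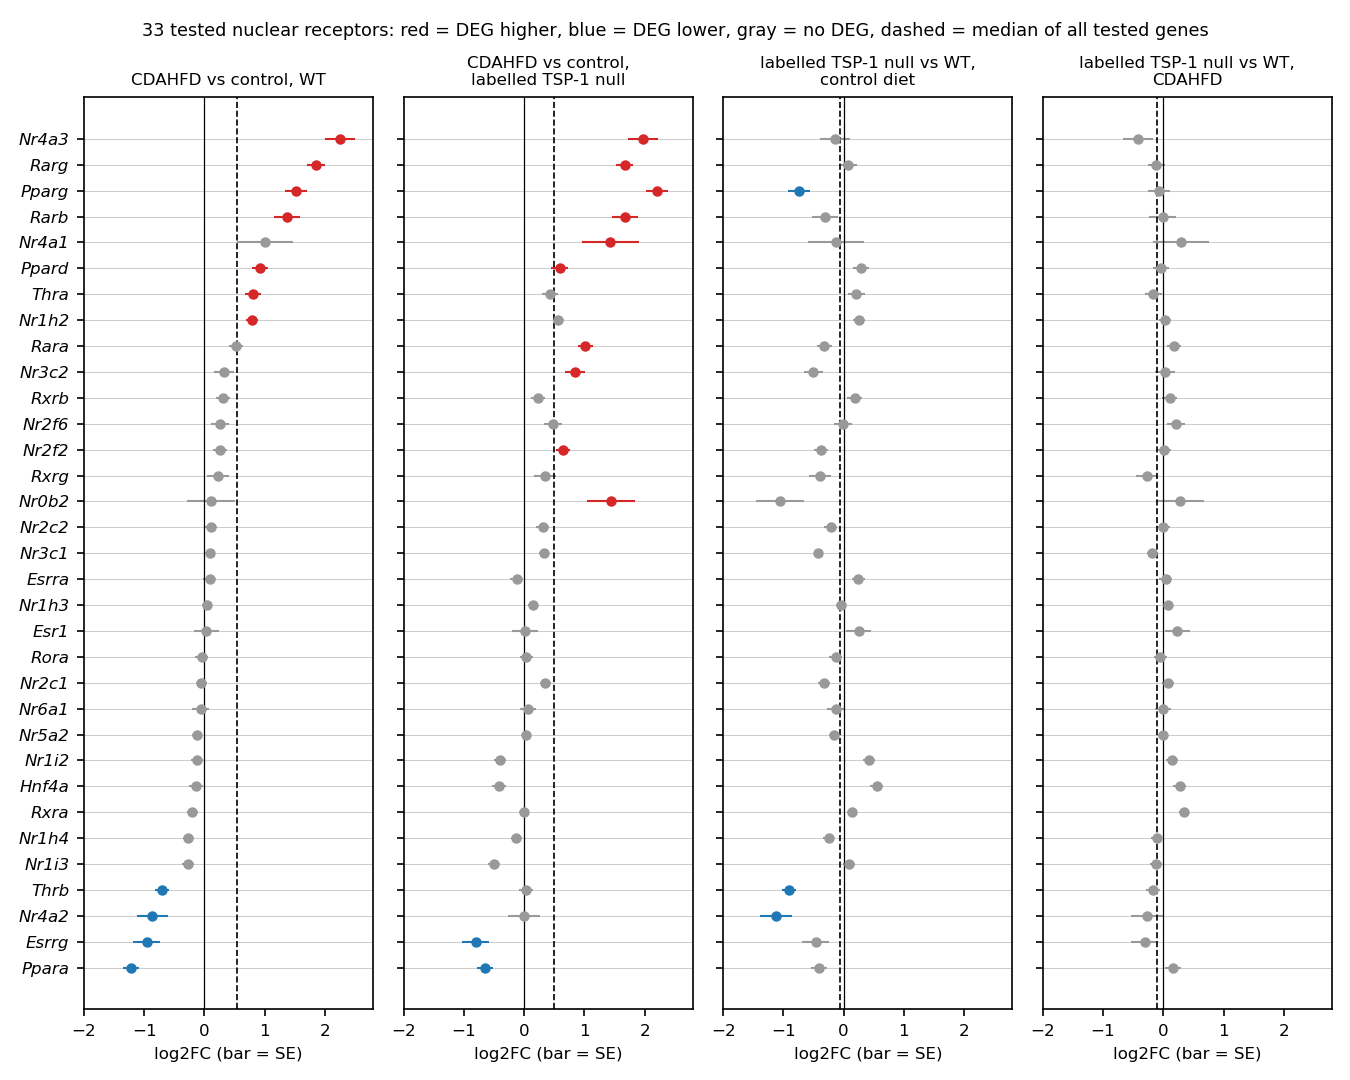
Log2FC with SE of the 33 tested nuclear receptors in the 4 comparisons, ordered by the WT diet comparison. Red and blue points are DEGs, and the dashed line is the median of all tested genes, which lies at 0.53 and 0.50 in the diet comparisons, above the median of the receptors.

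Scaling of libraries by the median of ratios sets the median of all genes near 0 and moves these counts. Under it Pparg, Rarb, Rarg and Nr4a3 rose in both genotypes, and no other member did. Lower calls then numbered 12 in WT (Ppara, Nr1h4, Nr1i2, Nr1i3, Rxra, Thrb, Hnf4a, Nr5a2, Rora, Esrrg, Nr2c1 and Nr4a2) and 7 in libraries labelled TSP-1 null (Ppara, Nr1h4, Nr1i2, Nr1i3, Hnf4a, Esrra and Esrrg). Of all tested genes 22.7% rose and 15.4% fell in WT under this scaling, and 22.2% and 13.6% in libraries labelled TSP-1 null. With quantile normalization 18.7% of all tested genes rose and 15.9% fell in WT, and 18.4% and 13.5% in libraries labelled TSP-1 null, and 3 receptors rose and 9 fell in WT against 5 and 8. Ppara, Pparg and Rarg kept their diet call in both genotypes under every alternative run. Esrrg, which was no DEG with a pseudocount of 1 (-0.36 and -0.26), and Nr4a3, which was none with it in libraries labelled TSP-1 null (0.46), passed the filter through the diet in which they were high.

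Markers of several other liver cell types moved with the diet. For all tested genes, 44.1% rose and 4.62% fell in WT, and 41.9% and 4% in libraries labelled TSP-1 null. With median of ratios scaling these shares were 22.7% and 15.4%, and 22.2% and 13.6%. The summed level of 8 stellate cell and myofibroblast markers was 11.6 to 16.8 FPKM in NDWT and 119 to 256 FPKM in HFWT, 13.7 to 15.4 in NDKO and 105 to 200 in HFKO, and all 8 were higher DEGs in both genotypes. All 5 cholangiocyte markers and all 6 lymphocyte markers were higher DEGs in both genotypes, as were 6 of 8 macrophage markers in WT and 7 of 8 in libraries labelled TSP-1 null. Another of them, Clec4f, a Kupffer cell marker named here after its values were seen, fell in both (log2FC -1.22 and -0.77), from 67.5 to 29.7 FPKM in WT and from 69.3 to 40.7 in libraries labelled TSP-1 null. The summed level of 6 sinusoidal endothelial markers ran from 43.3 to 58.3 FPKM over the control diet libraries and from 57.1 to 92.1 over the CDAHFD libraries, and 2 and 3 of the 6 were higher DEGs. With median of ratios scaling none of the 6 was higher and 1 lower in WT. In libraries labelled TSP-1 null 1 was then higher and none lower. Of 4 neutrophil markers, S100a8 and S100a9 were tested and both rose. Median of ratios scaling left 7 stellate cell, 5 cholangiocyte, 5 lymphocyte and 6 macrophage markers as higher DEGs in WT. In libraries labelled TSP-1 null these counts were 6, 5, 3 and 6. Timp1 of the stellate cell markers, Krt7, Cd8a and Ms4a1 passed the filter through CDAHFD libraries alone, since no control diet library exceeded 0.5 FPKM. Of 8 hepatocyte markers 2 fell in WT and 5 in libraries labelled TSP-1 null, and 7 and 6 under median of ratios scaling. Less RNA per cell and fewer cells of a type cannot be told apart in whole tissue, and the part of these cells in the receptor values was not tested.

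Among the lipid sensors, Ppara fell and its relatives Pparg and Ppard rose. Ppara, the receptor of fatty acid oxidation, had 77.9, 56.8, 84.2, 76.5 and 87.7 FPKM in NDWT and 53.7, 61.0, 62.6, 49.4 and 60.4 in NDKO. On CDAHFD it had 25.4, 35.7, 29.7, 32.4 and 41.4 FPKM in HFWT and 32.6, 40.4, 30.7, 34.9 and 45.5 in HFKO. No CDAHFD library reached the lowest control library of its genotype. The fall was 2.33-fold in WT (log2FC -1.22, SE 0.14, limma FDR 1.44e-07) and 1.57-fold in libraries labelled TSP-1 null (log2FC -0.65, SE 0.14, limma FDR 0.000275). The difference between these changes did not pass (log2FC 0.57, SE 0.19, limma FDR 0.156).

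Pparg, the receptor of adipocyte lipid storage, had 2.99, 3.65, 4.39, 3.00 and 3.97 FPKM in NDWT and 1.34, 3.13, 2.51, 2.30 and 1.60 in NDKO. Values on CDAHFD were 10.2, 10.2, 12.9, 10.03 and 9.16 FPKM in HFWT and 8.31, 11.4, 7.87, 11.0 and 11.8 in HFKO. All 10 CDAHFD libraries lay above all 10 control diet libraries. It rose 2.88-fold in WT (log2FC 1.52, SE 0.18, limma FDR 4.54e-07) and 4.6-fold in libraries labelled TSP-1 null (log2FC 2.20, SE 0.18, limma FDR 3.87e-09).

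Ppard, the most widely expressed subtype of the family, had 2.42, 2.24, 2.03, 1.80 and 1.87 FPKM in NDWT and 3.12, 2.67, 2.48, 2.32 and 2.21 in NDKO. The CDAHFD libraries held 5.09, 3.67, 3.97, 3.89 and 3.47 FPKM in HFWT and 3.47, 3.29, 4.21, 3.38 and 5.42 in HFKO. The diets did not overlap in either genotype. It rose by a log2FC of 0.92 in WT (SE 0.14, limma FDR 5.88e-06) and of 0.59 in libraries labelled TSP-1 null (SE 0.14, limma FDR 0.000698). With median of ratios scaling its log2FC was 0.38 and 0.07 and neither was a DEG. The call in libraries labelled TSP-1 null was lost without NDKO replicate 4 (0.56) or 5 (0.54) and without HFKO replicate 3 (0.56) or 5 (0.47).

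The balance of the PPARs within a library does not depend on scaling between libraries. On the control diet Pparg stood at 0.0479 times the level of Ppara in NDWT and at 0.0379 times in NDKO, and on CDAHFD at 0.33 and 0.273 times. The log2 ratio moved by 2.74 in WT and by 2.85 in libraries labelled TSP-1 null, and that of Ppard to Ppara by 2.14 and 1.24. For both ratios the diets did not overlap in either genotype.

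**Figure D3:**
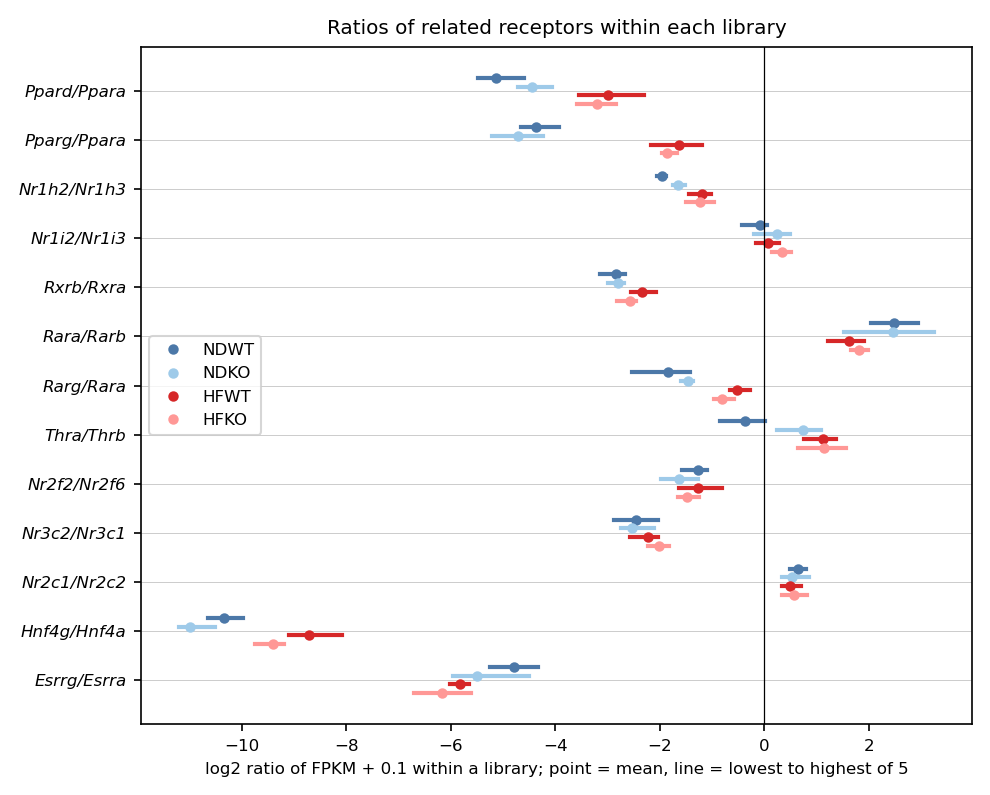
Log2 ratio of related receptors within each library after adding 0.1 FPKM, with the mean of 5 libraries as a point and the range as a line. Pparg/Ppara and Ppard/Ppara are higher in all CDAHFD libraries than in the control libraries, and Thra/Thrb is higher in NDKO than in NDWT, with means of 0.75 and -0.37.

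Of 14 PPARα target genes 11 fell in WT and 8 in libraries labelled TSP-1 null, and none rose. Their median log2FC was -1.48 and -0.71 against medians of 0.53 and 0.50 for all tested genes. By DEG call 4.62% and 4% of all tested genes fell, and 44.1% and 41.9% rose. The targets were listed with earlier results of these data known, and this difference was not tested. Acot1, an acyl-CoA thioesterase, had a log2FC of -4.22 in WT and -2.78 in libraries labelled TSP-1 null. Fabp1, the liver fatty acid binding protein, fell in WT (log2FC -1.48, SE 0.17, limma FDR 1.81e-07), whereas in libraries labelled TSP-1 null its log2FC was -0.31 (SE 0.17, limma FDR 0.104).

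The LXRs differed from each other. Nr1h2 (LXRβ) had 13.5, 14.4, 10.1, 11.8 and 10.8 FPKM in NDWT and 15.4, 14.4, 16.1, 12.3 and 14.0 in NDKO. After CDAHFD there were 22.3, 20.5, 19.3, 23.2 and 19.4 FPKM in HFWT and 20.8, 18.3, 22.5, 22.7 and 23.2 in HFKO, with no overlap of the diets. It rose in WT (log2FC 0.80, SE 0.10, limma FDR 6.16e-07), and in libraries labelled TSP-1 null its log2FC of 0.57 (SE 0.10, limma FDR 3.76e-05) lay just under the fold threshold. It passed that threshold without NDKO replicate 1 or 3 or HFKO replicate 1 or 2, and under median of ratios scaling it was no DEG in either genotype. Nr1h3 (LXRα), the main hepatic form, had a log2FC of 0.04 in WT and 0.15 in libraries labelled TSP-1 null (SE 0.09 each). The log2 ratio of Nr1h2 to Nr1h3 rose by 0.76 and 0.42 with no overlap.

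Of 10 LXR target genes 4 rose and 1 fell in WT, and 5 rose and 1 fell in libraries labelled TSP-1 null. With median of ratios scaling 3 rose and 4 fell in WT, and 3 and 3 in libraries labelled TSP-1 null. By comparison, 44.1% of all tested genes rose and 4.62% fell in WT, and 41.9% and 4% in libraries labelled TSP-1 null. With median of ratios scaling these shares were 22.7% and 15.4%, and 22.2% and 13.6%. Lpl, lipoprotein lipase (log2FC 4.31 and 3.73), Abcg1, a cholesterol exporter (1.89 and 1.72), and Mylip, which degrades the LDL receptor (0.79 and 0.61), rose. Mylip was no DEG under median of ratios scaling (0.24 and 0.08) or quantile normalization, and in libraries labelled TSP-1 null also not with a pseudocount of 1 (0.56) or without HFKO replicate 5 (0.54). Scd1, the stearoyl-CoA desaturase, fell (-5.00 and -3.61). Abcg1 and Lpl are also transcribed in macrophages, of whose 8 markers 6 and 7 rose while Clec4f fell. The part of macrophages in the values of Abcg1 and Lpl was not tested.

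Nr1h4 (FXR), the bile acid receptor, lay between 46.4 and 54.2 FPKM in NDWT and between 35.5 and 45.1 in HFWT, without overlap, and the log2FC of -0.27 (SE 0.09, limma FDR 0.0128) was under the fold threshold. In libraries labelled TSP-1 null the diets overlapped (log2FC -0.13, SE 0.09, limma FDR 0.228). Nr0b2 (SHP), the FXR-induced repressor without a DNA-binding domain, had 41.6, 41.5, 26.0, 37.9 and 31.2 FPKM in NDWT and 32.8, 12.2, 21.4, 6.19 and 25.7 in NDKO. In mice on CDAHFD it had 77.7, 17.0, 35.2, 30.3 and 55.5 FPKM in HFWT and 57.7, 45.6, 64.2, 28.1 and 43.0 in HFKO. Groups overlapped on both diets, and within HFWT the values ran from 17.0 to 77.7. In libraries labelled TSP-1 null Nr0b2 rose (log2FC 1.44, SE 0.40, limma FDR 0.00336), a call that was lost under median of ratios scaling (0.91, limma FDR 0.0572), and in WT the log2FC was 0.11 (SE 0.40).

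Of 6 FXR target genes, listed without the direction in which FXR acts on them, 5 were tested. Slc51b, a basolateral bile acid exporter, rose (log2FC 3.62 in WT and 3.11 in libraries labelled TSP-1 null) and Cyp8b1, the sterol 12-hydroxylase of bile acid synthesis, fell (-2.28 and -2.09). Slc51b passed the filter mostly through CDAHFD libraries, with at most 0.528 FPKM in NDWT and 0.405 in NDKO. Cyp7a1, the rate-limiting enzyme of bile acid synthesis, rose in WT (log2FC 1.60, SE 0.46, limma FDR 0.00423), from 3.28 to 24.1 FPKM in NDWT to 14.0 to 37.8 in HFWT, with overlap, and it was no DEG under median of ratios scaling. In libraries labelled TSP-1 null it had a log2FC of -0.45 (SE 0.46, limma FDR 0.396).

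The xenobiotic sensors did not pass the fold threshold. Nr1i2 (PXR) had a log2FC of -0.13 in WT (SE 0.10, limma FDR 0.236) and -0.40 in libraries labelled TSP-1 null (SE 0.10, limma FDR 0.000987), where it lay between 37.5 and 54.2 FPKM in NDKO and between 32.7 and 34.3 in HFKO. Nr1i3 (CAR) had a log2FC of -0.28 (SE 0.10, limma FDR 0.0164) and -0.50 (SE 0.10, limma FDR 0.000186), with 32.2 to 43.1 FPKM in NDKO and 23.7 to 29.6 in HFKO. For both genes the diets did not overlap in libraries labelled TSP-1 null. With median of ratios scaling both were lower DEGs in both genotypes. Nr1i3 overlaps Tomm40l on the opposite strand over 2900 bases, and whether the counting used strand is not given in the sources used here.

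Target genes of PXR and CAR went both ways, with 3 higher and 3 lower of 8 tested (9 listed) in WT and 2 and 3 in libraries labelled TSP-1 null. The shares of all tested genes were 44.1% higher and 4.62% lower in WT, and 41.9% and 4% in libraries labelled TSP-1 null. Cyp3a11, the PXR-induced monooxygenase (log2FC 1.83 and 1.74), and Cyp2c55 (2.55 and 2.15) rose, and Cyp2c29 fell (-3.13 and -2.24). Cyp2c55 passed the filter through CDAHFD libraries alone, with at most 0.347 FPKM on the control diet. The uptake carrier gene Slco1a4 rose in WT (1.54, limma FDR 0.000218) and had a log2FC of 0.31 in libraries labelled TSP-1 null (limma FDR 0.393).

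None of the shared partners was a DEG. Rxra, the main hepatic RXR, had a log2FC of -0.20 in WT (SE 0.09, limma FDR 0.0442) and 0.00 in libraries labelled TSP-1 null (SE 0.09, limma FDR 0.993). Rxrb had 0.31 and 0.23 (SE 0.12 each) and Rxrg 0.22 and 0.34 (SE 0.18 each). The log2 ratio of Rxrb to Rxra rose by 0.51 in WT without overlap of the diets. Rxra fell in WT under median of ratios scaling.

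The retinoic acid receptors rose on CDAHFD in both genotypes, except that Rara in WT did not reach the fold threshold. Rarb is the classical retinoic acid-induced receptor gene, and its promoter is shown because a retinoic acid response element lies in it. In the RefSeq sequence (GRCm38.p6, chr14:16575427-16575726, minus strand, around the start site) the capitals mark GGTTCA and AGTTCA with 5 bases between them, a direct repeat, at -53 to -37 from the start site.
Rarb: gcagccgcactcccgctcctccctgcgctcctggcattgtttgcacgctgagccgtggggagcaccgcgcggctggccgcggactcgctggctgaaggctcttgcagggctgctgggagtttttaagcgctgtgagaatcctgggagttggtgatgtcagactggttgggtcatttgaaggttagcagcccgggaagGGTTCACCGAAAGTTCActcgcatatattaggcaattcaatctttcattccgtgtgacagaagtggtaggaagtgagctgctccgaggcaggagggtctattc

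Among 32851 RefSeq promoter windows of the same length 0.00609% held this motif on either strand, and Rarb was the only member among 33 members with a window (52 windows in all). The letters searched were those of the Rarb element, so the match in Rarb was fixed in advance. This share therefore does not measure how unusual that match is. The hexamer AGGTCA was present in 16.3% of all windows and in 10 of the 52 member windows, which is 19.2%. Direct repeats of AGGTCA with 1, 2, 4 or 5 bases between them, and AGGTCA followed after 1 base by TGACCT, were in no member window. The E-box CACGTG was in 7.15% of all windows and in 5 member windows (of Nr0b2, Nr1i3, Rara and Thrb), and the cyclic AMP response element TGACGTCA in 1.79% and in 1 member window (of Nr6a1). The other retinoic acid receptor genes held this hexamer in at least 1 window, shown for comparison with its capitals marking AGGTCA or its reverse complement TGACCT.
Rara (chr11:98964881-98964921, plus strand, 34 to 39 after the start site): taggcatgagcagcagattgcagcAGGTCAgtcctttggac
Rarg (chr15:102257718-102257771, minus strand, -225 to -220 from the start site): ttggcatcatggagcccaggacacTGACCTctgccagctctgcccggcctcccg

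Rarb had 1.03, 0.691, 1.31, 1.08 and 0.925 FPKM in NDWT and 0.942, 0.435, 1.18, 1.13 and 0.489 in NDKO. On CDAHFD it had 3.05, 2.45, 3.48, 2.33 and 2.44 FPKM in HFWT and 2.93, 2.82, 2.49, 2.35 and 2.96 in HFKO. The lowest CDAHFD library lay above the highest control library. It rose 2.59-fold in WT (log2FC 1.37, SE 0.22, limma FDR 1.46e-05) and 3.19-fold in libraries labelled TSP-1 null (log2FC 1.67, SE 0.22, limma FDR 1.4e-06). The call in WT was lost under quantile normalization (log2FC 0.45, limma FDR 0.0628).

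Rarg, the receptor best known from skin and cartilage, had 2.31, 1.57, 1.11, 1.66 and 1.54 FPKM in NDWT and 2.11, 1.75, 1.86, 1.26 and 1.53 in NDKO. Values on CDAHFD were 6.46, 6.50, 5.20, 6.31 and 5.73 FPKM in HFWT and 5.45, 5.29, 5.17, 5.78 and 6.14 in HFKO. Every CDAHFD library lay above every control diet library. It rose 3.61-fold in WT (log2FC 1.85, SE 0.15, limma FDR 1.25e-09) and 3.18-fold in libraries labelled TSP-1 null (log2FC 1.67, SE 0.15, limma FDR 6.32e-09), and it had the lowest FDR of the receptors in WT.

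Rara, the most abundant of the 3 subtypes in all 4 groups, had 6.34, 5.96, 6.86, 4.75 and 6.21 FPKM in NDWT and 5.96, 5.01, 4.96, 3.45 and 4.80 in NDKO. The CDAHFD libraries held 10.2, 7.90, 8.21, 8.99 and 8.01 FPKM in HFWT and 10.3, 9.12, 10.2, 8.71 and 10.6 in HFKO. The diets did not overlap in either genotype. It rose in libraries labelled TSP-1 null (log2FC 1.02, SE 0.12, limma FDR 3.9e-07), and in WT the log2FC was 0.52 (SE 0.12, limma FDR 0.000703). Under median of ratios scaling the value in libraries labelled TSP-1 null was 0.49 and no DEG. Within libraries the log2 ratio of Rarg to Rara rose by 1.33 in WT and 0.65 in libraries labelled TSP-1 null, without overlap.

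Of 6 retinoic acid receptor target genes 5 were tested, of which 3 rose and 1 fell in WT, and 3 rose in libraries labelled TSP-1 null. For all tested genes, 44.1% rose and 4.62% fell in WT, and 41.9% and 4% in libraries labelled TSP-1 null. Cyp26a1, which degrades retinoic acid, rose from 0.032 to 0.439 FPKM in NDWT to 1.53 to 5.97 in HFWT and from 0.028 to 0.355 in NDKO to 2.48 to 5.85 in HFKO (log2FC 3.61 and 4.30). Cyp26a1 passed the filter through these CDAHFD libraries alone. Lrat, which esterifies retinol, rose by a log2FC of 0.73 and 1.00, and was no DEG under median of ratios scaling, nor in WT without NDWT replicate 4 or HFWT replicate 1 or 3 (limma FDR 0.0591 to 0.0708). Cyp26b1, another retinoic acid hydroxylase, fell in WT (-1.13, SE 0.43, limma FDR 0.0249), a call lost without NDWT replicate 1 or 4 or HFWT replicate 4 or 5 (Cyp26b1 log2FC -0.99 to -0.93, limma FDR 0.0629 to 0.0706). Lrat is also transcribed in stellate cells and is itself in the list of stellate cell markers, so that list is no separate measure. The part of stellate cells in its value was not tested.

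The thyroid hormone receptors moved in opposite directions in WT. Thrb, the hepatic subtype, had 6.51, 4.79, 7.07, 4.98 and 5.89 FPKM in NDWT and 2.69, 2.88, 2.85, 3.35 and 3.52 in NDKO. After CDAHFD there were 3.52, 3.41, 4.43, 3.05 and 3.36 FPKM in HFWT and 3.25, 3.56, 2.83, 2.98 and 2.97 in HFKO. NDWT stood above the 3 other groups without overlap, and the latter overlapped with each other. Thrb fell on CDAHFD in WT (log2FC -0.70, SE 0.12, limma FDR 2.28e-05), and in libraries labelled TSP-1 null its log2FC was 0.03 (SE 0.12, limma FDR 0.825). Under quantile normalization it was a lower DEG in libraries labelled TSP-1 null too (-0.65, limma FDR 0.000103).

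Thra, the more widely expressed subtype, had 5.49, 4.56, 3.90, 5.01 and 3.60 FPKM in NDWT and 5.29, 6.28, 4.73, 3.97 and 5.97 in NDKO. In mice on CDAHFD it had 9.23, 7.97, 7.58, 8.09 and 6.67 FPKM in HFWT and 7.10, 5.61, 8.58, 6.42 and 7.78 in HFKO. In WT the diets did not overlap, and in libraries labelled TSP-1 null they did. It rose in WT (log2FC 0.81, SE 0.14, limma FDR 3.56e-05), and in libraries labelled TSP-1 null the log2FC was 0.43 (SE 0.14, limma FDR 0.00934). The WT value was 0.25 under median of ratios scaling (limma FDR 0.0962) and no DEG. Thra overlaps Nr1d1 on the opposite strand over 1075 bases, where Nr1d1 held 1466 to 3508 fragments per library. Nr1d1 itself had a log2FC of -0.08 in WT and 0.36 in libraries labelled TSP-1 null, and neither was a DEG.

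Among 6 thyroid hormone receptor target genes, Me1, the malic enzyme (log2FC -2.10 in WT and -1.20 in libraries labelled TSP-1 null), and G0s2, an inhibitor of lipolysis (-2.70 and -2.16), fell and Hr, a corepressor gene, rose (1.89 and 1.79). Hr passed the filter mostly through CDAHFD libraries, with at most 0.641 FPKM in NDWT and 0.458 in NDKO. Dio1, the deiodinase, fell in WT (-0.75, limma FDR 0.00811) and had -0.47 in libraries labelled TSP-1 null (limma FDR 0.0803). Vdr was left out of the tests by the filter on low values. It held 0 to 3 fragments per control library and 0 to 14 per CDAHFD library, and its mean level on CDAHFD was at least 2.2-fold higher in WT and at least 3.04-fold higher in libraries labelled TSP-1 null than a floor of 3 fragments per library.

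Of the steroid receptors, Nr3c1 (glucocorticoid receptor) and Esr1 (estrogen receptor α) were no DEGs. Nr3c1 had a log2FC of 0.10 in WT and 0.32 in libraries labelled TSP-1 null (SE 0.08 each), and Esr1 of 0.03 and 0.01 (SE 0.21 each). Nr3c2 (mineralocorticoid receptor) rose in libraries labelled TSP-1 null, from 1.34 ± 0.394 to 2.42 ± 0.107 FPKM (SD, n = 5) without overlap (log2FC 0.84, SE 0.17, limma FDR 0.000149). In WT its log2FC was 0.32 (SE 0.17, limma FDR 0.0902), and under median of ratios scaling the value in libraries labelled TSP-1 null was 0.34 (limma FDR 0.0921). Of 10 glucocorticoid receptor target genes 4 rose and 2 fell in WT and 3 rose and 2 fell in libraries labelled TSP-1 null, and under median of ratios scaling 3 rose and 4 fell, and 2 rose and 7 fell. Set beside these, 44.1% of all tested genes rose and 4.62% fell in WT, and 41.9% and 4% in libraries labelled TSP-1 null. Under median of ratios scaling the shares were 22.7% and 15.4%, and 22.2% and 13.6%. Sgk1, a kinase (log2FC 1.98 and 1.66), and Per1, a clock gene (1.60 and 1.20), rose in both, and Pck1, the gluconeogenic carboxykinase, fell in both (-0.85 and -1.03). Both calls for Pck1 were lost under quantile normalization (-0.53 and -0.28). Mt2, a metallothionein, rose in WT (2.24, SE 0.49, limma FDR 0.000393) and had -0.69 in libraries labelled TSP-1 null (limma FDR 0.211).

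Of the hepatocyte fate and metabolic orphan receptors, Hnf4a had a log2FC of -0.14 in WT (SE 0.11, limma FDR 0.249) and -0.42 in libraries labelled TSP-1 null (SE 0.11, limma FDR 0.00235). Nr5a2 (LRH-1, a regulator of bile acid genes) had -0.13 and 0.03, Rora (RORα) -0.05 and 0.04, and Esrra (ERRα, a regulator of mitochondrial genes) 0.09 and -0.12. None of these was a DEG on the deposited scale. Under median of ratios scaling Hnf4a was a lower DEG in both genotypes, at -0.70 and -0.95. Esrra overlaps Trmt112 on the opposite strand over 73 bases.

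Esrrg (ERRγ) had 0.796, 0.685, 0.652, 0.469 and 0.735 FPKM in NDWT and 0.382, 0.482, 0.302, 0.403 and 0.789 in NDKO. On CDAHFD it had 0.234, 0.282, 0.310, 0.291 and 0.345 FPKM in HFWT and 0.212, 0.309, 0.152, 0.139 and 0.304 in HFKO. WT libraries did not overlap between diets, and those labelled TSP-1 null did, since the lowest NDKO value (0.302) lay below the HFKO values of 0.309 and 0.304. It fell in both (log2FC -0.96 and -0.80, SE 0.22, limma FDR 0.000705 and 0.00312). Esrrg passed the filter through its control diet libraries alone, and with a pseudocount of 1 its log2FC was -0.36 and -0.26 and no DEG.

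Hnf4g, a close relative of Hnf4a, was left out of the tests by the filter. It held 0 to 4 fragments per control library and 7 to 39 per CDAHFD library, with no overlap between diets. Its mean level in HFKO, 0.168 FPKM, was at least 4.72-fold higher than a floor of 3 fragments per library. In WT the mean was 0.027 ± 0.0206 FPKM on the control diet and 0.263 ± 0.108 on CDAHFD (SD, n = 5). With no filter its log2FC was 1.49 in WT (SE 0.17, limma FDR 5.98e-07) and 1.19 in libraries labelled TSP-1 null (SE 0.17, limma FDR 1.02e-05).

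Of 10 HNF4α target genes 5 fell and none rose in each genotype, with a median log2FC of -0.60 and -0.55. Under median of ratios scaling 10 fell in WT and 8 in libraries labelled TSP-1 null. For all tested genes the lower share was 4.62% and 4%, and under that scaling 15.4% and 13.6%. This list too was chosen with earlier results of these data known, and the difference was not tested. Mttp, which loads lipid onto lipoproteins (log2FC -1.18 and -0.60), Apoa2 (-0.80 and -0.71), Apoc3 (-0.75 and -0.76) and Serpina1e (-3.00 and -3.39) were among the targets that fell. The calls for Apoc3 were lost under quantile normalization (-0.09 and -0.0017). In libraries labelled TSP-1 null that of Mttp was lost without NDKO replicate 2 or HFKO replicate 4 (-0.58 to -0.55). Serpina1e belongs to a family of near-identical genes, so its own value is uncertain.

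Among the COUP-TF and testicular receptors, Nr2f2 (COUP-TFII), which is also expressed in venous endothelium and mesenchymal cells, rose in libraries labelled TSP-1 null. It had 8.51 ± 1.28 FPKM in NDKO and 13.3 ± 1.77 in HFKO (SD, n = 5) without overlap (log2FC 0.65, SE 0.12, limma FDR 8.54e-05), and a log2FC of 0.26 in WT (SE 0.12, limma FDR 0.0599). Under median of ratios scaling the value in libraries labelled TSP-1 null was 0.11 (limma FDR 0.395). Nr2f6 (log2FC 0.26 in WT and 0.48 in libraries labelled TSP-1 null), Nr2c1 (-0.05 and 0.35), Nr2c2 (0.10 and 0.31) and Nr6a1 (-0.06 and 0.06) were no DEGs. Without NDKO replicate 2 the value of Nr2f6 in libraries labelled TSP-1 null was 0.62 and a DEG. Nr2f6 overlaps Ocel1 over 5239 bases and Nr2c2 overlaps Mrps25 over 3533 bases, each on the opposite strand. Nr2f1 (COUP-TFI) was left out by the filter, with means of 0.177 FPKM in NDWT and 0.205 in NDKO on the control diet, against 0.337 (HFWT) and 0.26 (HFKO) on CDAHFD. With no filter its log2FC was 0.66 in WT (SE 0.19, limma FDR 0.00602) and 0.27 in libraries labelled TSP-1 null (SE 0.19, limma FDR 0.265).

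The NR4A receptors, immediate early genes without a known natural ligand, went different ways. Nr4a3 (NOR1) had 0.065, 0.010, 0.084, 0.068 and 0.008 FPKM in NDWT and 0.008, 0.081, 0.018, 0.021 and 0.033 in NDKO. Values on CDAHFD were 0.512, 0.709, 0.577, 0.661 and 0.464 FPKM in HFWT and 0.257, 0.481, 0.427, 0.389 and 0.535 in HFKO. All CDAHFD libraries lay above all control libraries, which held 1 to 11 fragments each. It rose in WT (log2FC 2.24, SE 0.25, limma FDR 1.49e-07) and in libraries labelled TSP-1 null (1.97, SE 0.25, limma FDR 9.31e-07). It passed the filter through CDAHFD libraries alone, and a log2FC on this scale understates the change of such a low gene.

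Nr4a1 (NUR77) had 8.73, 1.96, 3.70, 1.20 and 0.790 FPKM in NDWT and 1.47, 1.73, 2.03, 4.98 and 1.54 in NDKO. The CDAHFD libraries held 5.18, 4.83, 3.75, 6.73 and 3.69 FPKM in HFWT and 3.37, 7.47, 7.93, 4.83 and 6.92 in HFKO. NDWT replicate 1 held the highest value of all 20 libraries, and the diets overlapped in both genotypes. It rose in libraries labelled TSP-1 null (log2FC 1.43, SE 0.47, limma FDR 0.00991), a call lost under median of ratios scaling (0.91, limma FDR 0.0991). In WT its log2FC was 1.00 (SE 0.47, limma FDR 0.0598). It passed in WT without NDWT replicate 1 (1.47, limma FDR 0.00229), without NDWT replicate 3 (1.17, limma FDR 0.0415) and without NDKO replicate 4 (1.00, limma FDR 0.0452).

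Nr4a2 (NURR1) had 1.10, 0.679, 0.623, 0.790 and 0.58 FPKM in NDWT and 0.239, 0.455, 0.514, 0.123 and 0.219 in NDKO. After CDAHFD there were 0.357, 0.418, 0.462, 0.259 and 0.328 FPKM in HFWT and 0.257, 0.205, 0.233, 0.299 and 0.465 in HFKO. NDWT again stood above the 3 other groups without overlap. It fell on CDAHFD in WT (log2FC -0.86, SE 0.26, limma FDR 0.00622), a call lost with a pseudocount of 1 (-0.36), and in libraries labelled TSP-1 null the log2FC was 0.00 (SE 0.26, limma FDR 0.997). Under quantile normalization Nr4a2 was a lower DEG in libraries labelled TSP-1 null too (-0.85, limma FDR 0.0111). Nr4a2 passed the filter through NDWT and 1 NDKO library.

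All 7 other immediate early genes rose on CDAHFD in both genotypes. Atf3, a stress-induced factor (log2FC 4.79 in WT and 5.22 in libraries labelled TSP-1 null), and Fos (2.97 and 3.49) rose most among them, and under median of ratios scaling 5 of the 7 rose in WT and 7 in libraries labelled TSP-1 null. Their summed level was 34.5 to 71.3 FPKM over the control diet libraries and 108 to 248.5 FPKM over the CDAHFD libraries. In NDWT replicate 1, where Nr4a1 was highest, the sum was 60.3 FPKM, and in NDWT replicate 2 it was 71.3. Fosb of the 7 genes passed the filter through CDAHFD libraries alone. Fos passed mostly through them, with at most 0.892 FPKM in NDWT and 0.479 in NDKO. Higher calls covered 44.1% and 41.9% of all tested genes, and 22.7% and 22.2% under median of ratios scaling.

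**Figure D4:**
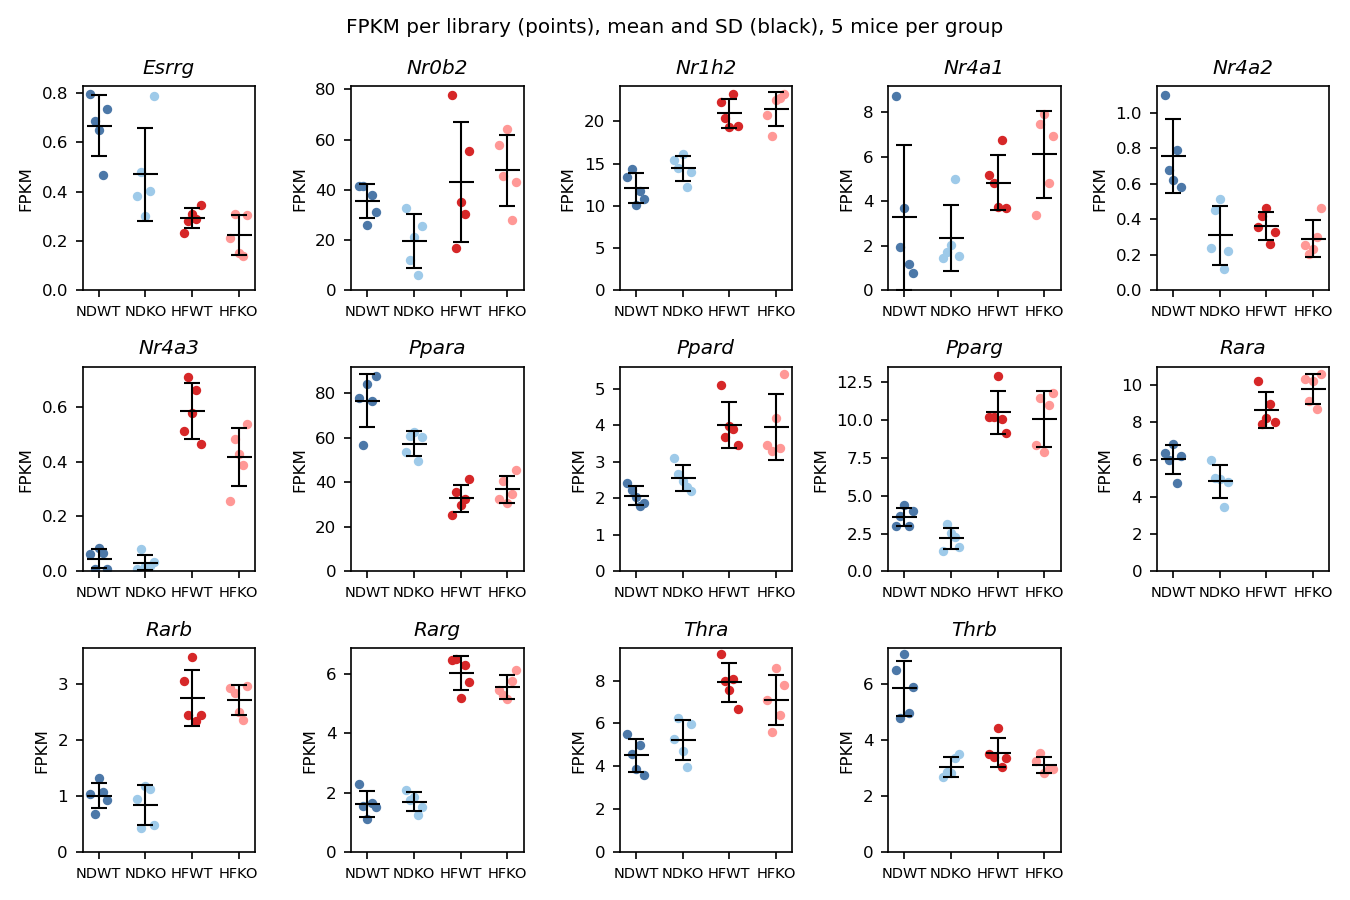
FPKM of 14 nuclear receptors in each library, with the mean and SD of 5 mice in black and every axis starting at 0. Thrb and Nr4a2 are highest in NDWT without overlap with the other groups, and Pparg, Rarb, Rarg and Nr4a3 are higher in all CDAHFD libraries than in all control libraries.

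The next question was how libraries labelled TSP-1 null differed from WT on each diet, with the reservation that Thbs1 runs against the labels on the control diet. On the control diet 3 receptors were lower in libraries labelled TSP-1 null (Thrb, Nr4a2 and Pparg) and none higher, out of 33, and 17 had an unadjusted p under 0.05. Among all tested genes 1.74% were higher and 3.03% lower DEGs, and 27.3% had an unadjusted p under 0.05. Nr4a2 passed the filter mostly through NDWT, where it was high. The median log2FC was -0.14 over the receptors and -0.07 over all tested genes.

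Thrb showed the lowest FDR, with 3.06 ± 0.356 FPKM in NDKO against 5.85 ± 0.976 in NDWT (SD, n = 5), which is 1.87-fold lower without overlap (log2FC -0.91, SE 0.12, limma FDR 8.05e-05). Nr4a2 was 2.19-fold lower without overlap (log2FC -1.13, SE 0.26, limma FDR 0.00818), and no DEG with a pseudocount of 1 (-0.42). Pparg was 1.68-fold lower (log2FC -0.75, SE 0.18, limma FDR 0.0114), where 1 NDKO library at 3.13 FPKM lay above the NDWT libraries at 2.99 and 3.00. The call for Pparg was lost with a pseudocount of 1 (-0.55) and when only NDWT and NDKO were fitted (limma FDR 0.0548). All 3 were lower DEGs with median of ratios scaling too, at -0.83, -1.11 and -0.68, where 2.4% of all tested genes were higher and 2.27% lower DEGs.

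The ratio of Thra to Thrb in a library was 0.793 in NDWT and 1.74 in NDKO on average, and 2.26 and 2.31 in HFWT and HFKO. Its log2 value rose by 1.12 from NDWT to NDKO without overlap, as did that of Nr1h2 to Nr1h3 by 0.30. None of the 6 thyroid hormone receptor target genes was a DEG between the labels on the control diet, with a median log2FC of -0.22.

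Other receptors passed the FDR but not the fold threshold. Hnf4a had 163, 160, 148, 203 and 147 FPKM in NDWT and 245, 255, 296, 230 and 180 in NDKO, with overlap (log2FC 0.55, SE 0.11, limma FDR 0.00337). Hnf4a was a DEG under median of ratios scaling (0.62), without NDWT replicate 4 (0.62) and without NDKO replicate 5 (0.65). Nr1i2 had a log2FC of 0.42 (SE 0.10, limma FDR 0.00714), Nr3c1 of -0.42 (SE 0.08, limma FDR 0.00205), Nr2f2 of -0.38 (SE 0.12, limma FDR 0.0439) and Nr2c1 of -0.33 (SE 0.09, limma FDR 0.0282). Nr3c1 and Nr2f2 did not overlap between the labels, and with Thrb and Nr4a2 they made 4 lower receptors without overlap (12.1% of 33), where 6.69% of all tested genes were lower without overlap. Nr3c2 had a log2FC of -0.50 (SE 0.17, limma FDR 0.0517) and was a lower DEG without NDWT replicate 4 (-0.63) or NDKO replicate 5 (-0.65).

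Of 10 glucocorticoid receptor target genes 5 were higher on the control diet in libraries labelled TSP-1 null and none lower. These were Mt2 (log2FC 3.03), Zbtb16 (2.34), Per1 (1.13), Pck1 (0.82) and Tsc22d3, which encodes GILZ (0.79), while Nr3c1 itself was 8.03 ± 0.647 FPKM in NDKO and 10.8 ± 0.938 in NDWT (SD, n = 5). The call for Tsc22d3 was lost without NDWT replicate 2 or NDKO replicate 1 or 5 (limma FDR up to 0.0787). That for Per1 was lost when only NDWT and NDKO were fitted (limma FDR 0.0675). That for Pck1 was lost under quantile normalization (0.62, limma FDR 0.0659). The median of the 10 genes was 0.79, and 1.74% of all tested genes were higher and 3.03% lower DEGs. These 10 genes were listed with earlier results of these data known, and their difference from all tested genes was not tested. Mt2 ran from 5.39 to 20.4 FPKM in NDWT and from 39.7 to 327 in NDKO. Mt2 also responds to metals, Pck1 to glucagon and fasting, and Per1 to the clock, and the part of these was not tested.

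Of the PPARα targets Fabp1 (log2FC -0.96, SE 0.17, limma FDR 0.00128) and Vnn1, pantetheinase (-1.35, SE 0.24, limma FDR 0.0017), were lower in libraries labelled TSP-1 null on the control diet, without overlap. The median of the 14 PPARα targets was -0.38, and Ppara had a log2FC of -0.41 (SE 0.14, limma FDR 0.0538). Of the FXR list, the bile acid synthesis genes Cyp7a1 (2.09) and Cyp8b1 (0.67) were higher, and no other of its 5 tested genes was a DEG. That list does not separate genes by the direction in which FXR acts, so these calls do not measure FXR activity. Of the xenobiotic targets, Slco1a4 (1.40) and Por, the P450 reductase (0.81), were higher. The call for Cyp8b1 was lost with no filter on low values, with quantile normalization and without NDWT replicate 1, 2 or 3 or NDKO replicate 1, 2, 3 or 4 (limma FDR up to 0.0881). Of the 7 immediate early genes Jun (-1.39) and Atf3 (-0.84) were lower. Both calls were lost when only NDWT and NDKO were fitted, that of Atf3 also with a pseudocount of 1 (-0.38) and that of Jun without NDWT replicate 2 or NDKO replicate 1 (limma FDR 0.0513 and 0.0637). The coactivator gene Ppargc1a was higher (log2FC 1.28, SE 0.24, limma FDR 0.00219), with 0.523 to 1.89 FPKM in NDWT and 1.97 to 3.68 in NDKO. Of 8 hepatocyte markers 2 were higher DEGs here (Ass1 and Cps1) and of 8 macrophage markers 1 (Trem2), and Acta2 of the 8 stellate cell markers was lower. Trem2 had only 0.148 to 0.243 FPKM in NDWT and 0.27 to 0.627 in NDKO, and passed the filter mostly through CDAHFD libraries. Beside all list counts of this comparison, 1.74% of all tested genes were higher and 3.03% lower DEGs.

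**Figure D5:**
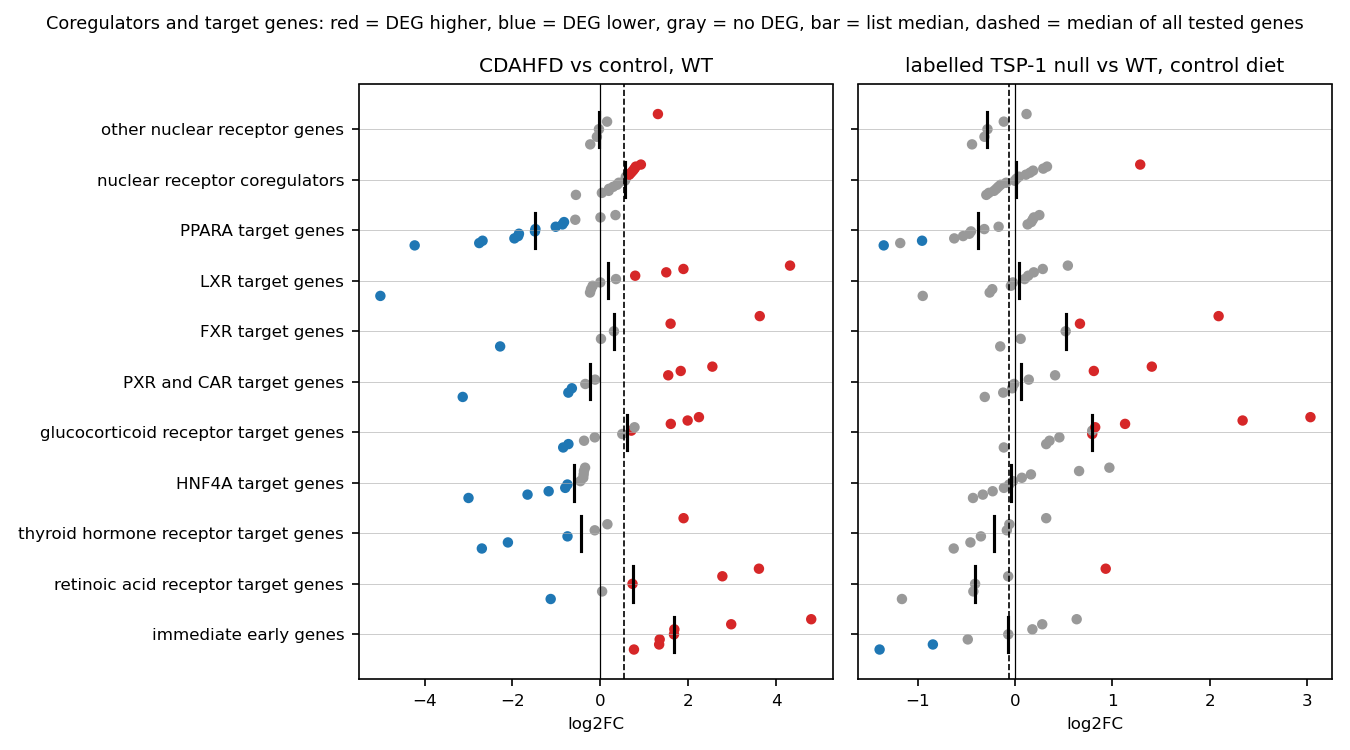
Log2FC of target genes, coregulators and other nuclear receptors in the diet comparison of WT and in the genotype comparison on the control diet. Each point is 1 gene, the bar is the list median and the dashed line the median of all tested genes; PPARα targets lie to the left with a median of -1.48 in the first panel, and glucocorticoid receptor targets lie to the right with a median of 0.79 in the second.

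On CDAHFD no receptor was a DEG between the labels in limma, and 3 had an unadjusted p under 0.05. Among all tested genes 0.165% were higher and 0.33% lower DEGs, and 17.2% had an unadjusted p under 0.05. Median of ratios scaling also gave 0 receptors, with 0.262% and 0.186% of all tested genes called. Rxra was the receptor without overlap, with 85.7, 103, 101, 94.7 and 84.1 FPKM in HFWT and 129, 107, 114, 121 and 122 in HFKO, where 0.847% of all tested genes were higher and 4.13% lower without overlap. Its log2FC was 0.34 (SE 0.09, limma FDR 0.0644). Hnf4a had a log2FC of 0.27 (SE 0.11, limma FDR 0.212), Thrb of -0.18 (SE 0.12, limma FDR 0.444) and Pparg of -0.07 (SE 0.18, limma FDR 0.877). Of the lists, Cyp8b1 (0.85) and the immediate early gene Egr1 (1.61) were higher DEGs in libraries labelled TSP-1 null, and none of the PPARα, LXR, HNF4α, glucocorticoid, thyroid hormone or retinoic acid targets was a DEG. The call for Cyp8b1 was lost in 3 alternatives (limma FDR 0.0563 to 0.113) and without any of 15 of the 20 libraries, which were all but NDWT replicates 2 and 4, NDKO replicate 5 and HFWT replicates 2 and 4. That of Egr1 was lost in 2 alternatives (limma FDR 0.0655 and 0.0933) and without HFWT replicate 1, 2, 3 or 5 or HFKO replicate 2, 3 or 4 (limma FDR up to 0.0925).

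Whether the genotype difference depended on the diet was asked by the interaction, the CDAHFD difference minus the control diet difference. Thrb was the 1 receptor that passed (log2FC 0.73, SE 0.16, limma FDR 0.0404), where 0.337% of all tested genes were higher and 0.31% lower, and 9 receptors had an unadjusted p under 0.05 (15.1% of all tested genes). Median of ratios scaling kept this call (0.76, limma FDR 0.0281), with 0.565% higher and 0.392% lower among all tested genes. The call for Thrb was lost with no filter on low values (FDR 0.0639), with eBayes without trend (0.0517) and without any of 14 of the 20 libraries, which were NDWT replicates 1, 3 and 5, NDKO replicates 1, 3 and 4, HFWT replicates 2, 4 and 5 and all 5 HFKO replicates, where the limma FDR rose to 0.0875 at most. Of the PPARα targets Fabp1 passed (1.17, SE 0.24, limma FDR 0.0257), and of the glucocorticoid receptor targets Mt2 passed (-2.93, SE 0.69, limma FDR 0.0496). The call for Fabp1 was lost with no filter on low values (limma FDR 0.0792) and without HFWT replicate 3 or HFKO replicate 4 (limma FDR 0.0516 and 0.0533). That of Mt2 was lost in 6 alternatives (limma FDR 0.051 to 0.0823) and without any of 16 of the 20 libraries, which were all but NDWT replicate 4, NDKO replicates 2 and 3 and HFWT replicate 1. The interactions of Pparg (0.68, SE 0.26, limma FDR 0.216), Ppara (0.57, SE 0.19, limma FDR 0.156) and Nr4a2 (0.86, SE 0.37, limma FDR 0.272) did not pass, so their diet effects were not shown to differ between the labels.

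Coregulators are proteins through which the receptors act on chromatin. Of 16 genes 6 rose in WT and 5 in libraries labelled TSP-1 null and none fell, where 44.1% and 41.9% of all tested genes rose, with median log2FC values of 0.57 and 0.50 against 0.53 and 0.50 for all tested genes. Hdac3, the deacetylase of the corepressor complex, had a log2FC of 0.70 and 0.59, Tbl1x, its exchange factor, of 0.66 and 0.71, and Ncoa3 (SRC-3) of 0.74 and 0.76. None of the 16 was a higher DEG in either diet comparison under median of ratios scaling. With that scaling 1 was lower in WT and 2 in libraries labelled TSP-1 null, against 15.4% and 13.6% of all tested genes. Of 13 other nuclear receptor genes 5 were tested, and Nr1h5 (FXRβ) rose in WT (log2FC 1.31, SE 0.15, limma FDR 2.2e-07), had 0.57 in libraries labelled TSP-1 null (SE 0.15, limma FDR 0.00217), and was lower in HFKO than in HFWT (-0.62, SE 0.15, limma FDR 0.0484), a call lost in 8 alternatives (limma FDR up to 0.128) and without any library but NDKO replicate 5 or HFWT replicate 4. In WT the rise of Nr1h5 was no DEG under quantile normalization (0.42).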

How the data were processed

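RNA-seq of 20 mouse livers (4 groups of 5) was analysed from the deposited gene table, whose FPKM values the authors made with QuickRNASeq. The submitters' processing notes name STAR 2.5.2 and featureCounts of Subread 1.5.1. These notes give a human build, whereas the coordinates in the table are those of mouse GRCm38 (99.8% of 37607 matched gene identifiers overlap the mouse annotation, as do all 36 members). Whether counting used strand is not given in the sources used here. Fragments were recovered from FPKM, gene length and library total within 0.05 of a whole number and serve as depths and floors only. Libraries held 15641545 to 23276322 fragments. Within groups the 40 pairs of libraries all differed by more than sampling noise (lowest chi-square per degree of freedom 13.0).

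FPKM values were transformed to log2(FPKM + 0.1), so fold changes of low genes are understated. Genes above 0.5 FPKM in at least 5 libraries (14524) were fitted over all 4 groups with limma 3.58.1 (R 4.3.3; eBayes with trend, 16 residual degrees of freedom) after a check on simulated data. P-values are two-sided and Benjamini-Hochberg adjusted over all tested genes in each comparison, and a DEG has FDR under 0.05 and absolute log2FC above 0.58. Tables were made in Python 3.11.15 with numpy 2.4.6 and pandas 2.3.3, and figures with matplotlib 3.10.9. Groups and replicate numbers are those of the labels. Each library is labelled as 1 mouse, and p-values measure the spread between these libraries.

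The members and gene lists were chosen with earlier results of these data known. Values per library are given for members that were DEGs in a genotype comparison or the interaction and for those with the 12 largest changes among diet DEGs. Of each list at most 4 DEGs with the lowest FDR in the WT diet comparison, and every DEG of a genotype comparison, are named. Some genes that this rule names are not reported here. Nr1d1 was added because it overlaps Thra, and the libraries of Hnf4a and Rxra because of results in their paragraphs, after their values were seen. Alternatives were pseudocounts of 0.01 and 1, a minimum of 1 FPKM or none, median of ratios and quantile scaling, no fold threshold, eBayes without trend, robust eBayes, fits of the compared groups alone, a replicate block and each library left out. Promoters are RefSeq sequences of GRCm38.p6. Of the members 33 matched, and Hnf4g, Nr3c1 and Thra had no entry.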

Additional observations from a re-analysis of the deposited data

Results flagged for a closer look

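Single libraries that stood far from the other 4 of their group were looked for in each member and group. Of 144 such groups 8 held one, where chance gives about 1 in 20, which is 7.2. They were the highest Pparg value in HFWT (12.904 FPKM), the highest Hnf4a value in NDWT (202.91 FPKM), the highest Nr4a1 value in NDKO (4.982 FPKM), the highest Nr3c2 value in NDKO (2.04 FPKM) and the lowest Nr3c2 value in HFWT (1.757 FPKM). Among the receptors below the filter they were the highest Hnf4g value in HFWT (0.449 FPKM), the highest Vdr value in NDWT (0.032 FPKM) and the lowest Vdr value in HFWT (0 FPKM). The cause was not tested.

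The genotype difference of Thrb differed between the diets by a log2FC of 0.72773 in the interaction (limma FDR 0.0404). Most of the fits that left out 1 library did not keep this call.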

How the results depend on the processing

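Of the members' own log2FC values under alternatives other than a left-out library, 1692 kept their call or stayed without one, 40 gained and 29 lost a call and 6 reversed. With a library left out these counts were 3220, 12, 18 and none. Of the 1692 and the 3220, 64 and 78 values without a call changed sign. Median of ratios scaling gave 4 higher and 12 lower members in WT and 4 and 7 in libraries labelled TSP-1 null, against 7 and 4, and 10 and 2, on the deposited scale. Quantile normalization gave 3 and 9, and 5 and 8. A pseudocount of 1 and a minimum of 1 FPKM each gave 2 lower in WT and 1 in libraries labelled TSP-1 null. With no fold threshold 7 were lower in WT, and 16 higher and 5 lower in libraries labelled TSP-1 null. For the genotype comparison on the control diet (0 higher and 3 lower), median of ratios scaling gave 1 higher, no fold threshold 2 higher and 6 lower, and a pseudocount of 1 gave 1 lower. The 1 higher member of the interaction became 0 with no filter on low values and with eBayes without trend.

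Leaving out each library in turn gave 6 to 8 higher and 3 to 4 lower members in WT, 8 to 11 higher and 1 to 2 lower in libraries labelled TSP-1 null, 0 to 1 higher and 3 to 4 lower between the labels on the control diet, and 0 to 1 in the interaction.

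Quantile normalization reversed the log2FC of Nr2c2 (-0.72), Esr1 (-0.92) and Ppargc1a (-0.13) in WT, and of Ppard (-0.10), Esr1 (-0.82), Thrb (-0.65) and Nr6a1 (-0.78) in libraries labelled TSP-1 null. Of ratios, a pseudocount of 1 moved Rara/Rarb (-0.44), Hnf4g/Hnf4a (0.44) and Esrrg/Esrra (-0.45) in WT, and Rarg/Rara (0.39) and Hnf4g/Hnf4a (0.61) in libraries labelled TSP-1 null, and a pseudocount of 0.01 moved Hnf4g/Hnf4a to 3.22 and 3.16. The cause of these moves was not tested.

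Replicate numbers did not pair the libraries (30 same-number pairs, r from -0.13 to 0.08, none above 0.1, and 6 of 20 libraries closest to their own number). With the replicate block the interaction gave 0 members (Thrb limma FDR 0.0646), and Nr0b2 became a lower DEG in libraries labelled TSP-1 null on the control diet (-1.05, limma FDR 0.046). Depth limits Vdr, Hnf4g, Nr2f1 and Nr4a3, which had few fragments on the control diet.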
